A study of Arabidopsis thaliana with 12 samples.

Results

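The comparison described here is the response of wild-type Arabidopsis thaliana roots to nitrate, made of the 3 Col-0 root samples given 5 mM KNO3 for 2 h set against the 3 Col-0 root samples given 5 mM KCl for 2 h. They were chosen by their sample titles and make up 6 of the 12 samples of the study. The other 6 samples are roots of the tga1/tga4 double mutant, mutant in the genes of a pair of bZIP transcription factors, with 3 samples per salt. All seedlings, of either genotype, had grown for 14 days in liquid medium with 0.5 mM ammonium succinate as the nitrogen source and 3 mM sucrose, in 16 h of light and 8 h of dark at 22 °C, and were treated on day 15 as the light came on. Both salts supplied the same potassium, so the contrast sets nitrate against chloride in plants grown on ammonium. Whole roots were taken, so a change in a root transcript and a change in the share of the cells that hold it cannot be told apart. The replicates are called independent in the labels, but not how they were made so, and the p-values rest on the variation among these samples alone, part of which may be technical.

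Nitrate is both a nitrogen source and a signal for roots. Transporters of the NPF and NRT2 families carry it in, nitrate reductase turns it into nitrite in the cytosol, and nitrite reductase makes ammonium in the plastid, where glutamine synthetase and glutamate synthase load it onto carbon skeletons. In root plastids, which have no photosynthesis, the oxidative pentose phosphate pathway supplies the electrons for nitrite reduction, and glycolysis with the citric acid cycle supplies the skeletons. NIN-like proteins are the best known transcription factors that switch nitrate genes on, and the GARP-type factors of the NIGT1/HHO family, themselves induced by nitrate, damp the response.

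Values are on the log2 scale of the deposited array table, 1 per probe set and sample, and differences are KNO3 minus KCl with their standard error (SE). A probe set was called when its adjusted p in limma was below 0.05 (Benjamini-Hochberg, over 22746 probe sets). Of these, 13513 carried the name of 1 gene, 503 of several genes and 8730 of none, and the last are given by their identifier. The 13355 named genes were each represented by their brightest probe set in counts over gene groups.

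Nitrate changed 1253 of 22746 probe sets, or 5.51%, in Col-0 roots. Of these, 755 were higher (3.32%) and 498 lower (2.19%). Among the 13355 named genes 2.74% were higher and 1.81% lower, the shares to be read beside each count over a gene group. The 3 KNO3 samples lay entirely above or entirely below the 3 KCl samples in 4697 of the 22746 probe sets (20.6%), and in all 1253 that were called, where the threshold largely fixes it. Without a correction for the number of tests, 3750 probe sets had a p under 0.05. The rises were the larger changes. Their median was 1.32 on the log2 scale, against -0.917 for the falls, and 188 rises and 28 falls reached 4-fold. From 16-fold upwards there were 25 rises and 0 falls. Over all probe sets the median change was -0.0136. The call was made in 9.65% of the brighter 50% of probe sets and in 1.36% of the dimmer 50%.

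**Figure D1:**
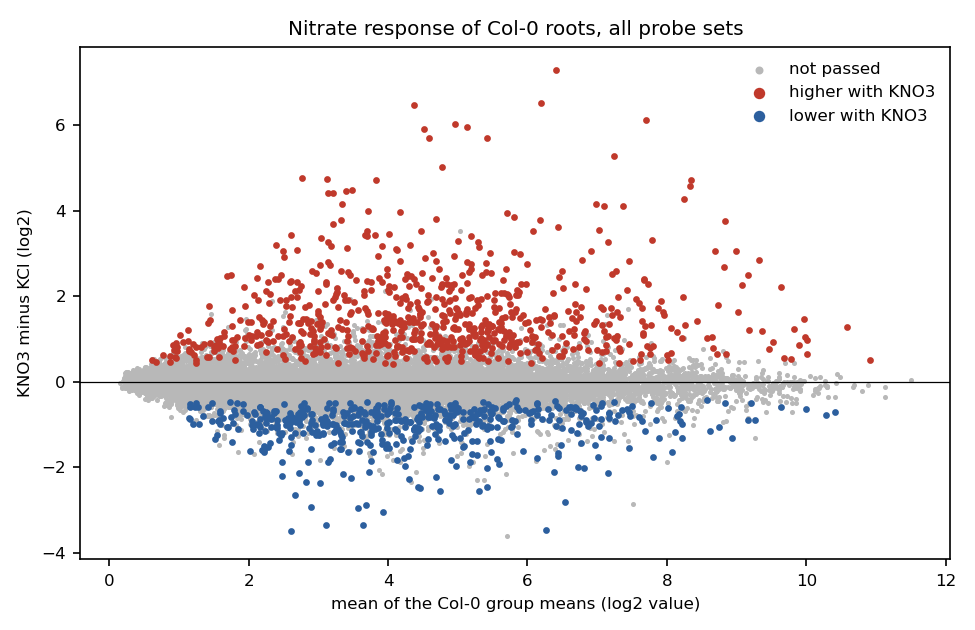
Each point is 1 of 22746 probe sets, with the mean of the Col-0 KNO3 and KCl group means on the horizontal axis and KNO3 minus KCl on the vertical axis, both log2. The 755 called rises reach 7.28, while the 498 called falls stop at -3.49.

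The 6 samples fell into the groups of their labels. A first principal component with 62.5% of the variance put the KNO3 samples at 20.9 to 48.1 and the KCl samples at -38.4 to -30.9. A second component with 16.6% placed KNO3 replicate 3 at -24.8 and the other KNO3 replicates at 12.2 and 24.8. Sample medians lay between 2.26 and 2.41. Without KNO3 replicate 1 the count of calls was 815, and without any 1 of KCl replicates 1, 2 and 3 and KNO3 replicates 1 and 3 the count of falls was between 265 and 315. Of 13 root cell type markers listed, EXPA7 of root hair cells was the only 1 with a named probe set, at 4.21 to 4.58 in KNO3 samples and 2.63 to 2.77 in KCl samples. Of 15 leaf markers, the only 1 measured by name was RCA, the activase of Rubisco, at 3.72 to 4.04 with KNO3 and 4.02 to 4.83 with KCl, which did not pass (adjusted p = 0.343). Of 4 genes often used as references 0 passed (limma, 1 at an unadjusted p under 0.05), with AT2G28390 at -0.27.

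The steepest rises among named genes were of genes that were dim in the KCl samples. AT2G48080, of the 2-oxoglutarate-dependent oxygenase superfamily, stood at 7.67, 7.34 and 7.83 with KNO3, against 1.29, 1.35 and 0.78 with KCl. The protein phosphatase 2C gene AT4G32950 stood at 7.84, 7.72 and 8.36 with KNO3, against 2.52, 1.53 and 1.79 with KCl. AT5G10210 had 7.39, 7.55 and 7.45 with KNO3 and 1.84, 1.30 and 1.54 with KCl. Their changes were 6.47 ± 0.20, 6.03 ± 0.32 and 5.90 ± 0.15, with the largest adjusted p at 3.09e-07, and AT5G10210 had the smallest adjusted p of all called probe sets, 1.66e-09. AT3G07350, of the DUF506 family, rose by 5.70 ± 0.17 and AT5G19970 by 4.42 ± 0.23. In 160 of the 755 rises every KCl sample was below the median of its own array. The level of such a gene with KCl was not shown to exceed background, so its fold change is uncertain in size.

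**Figure D2:**
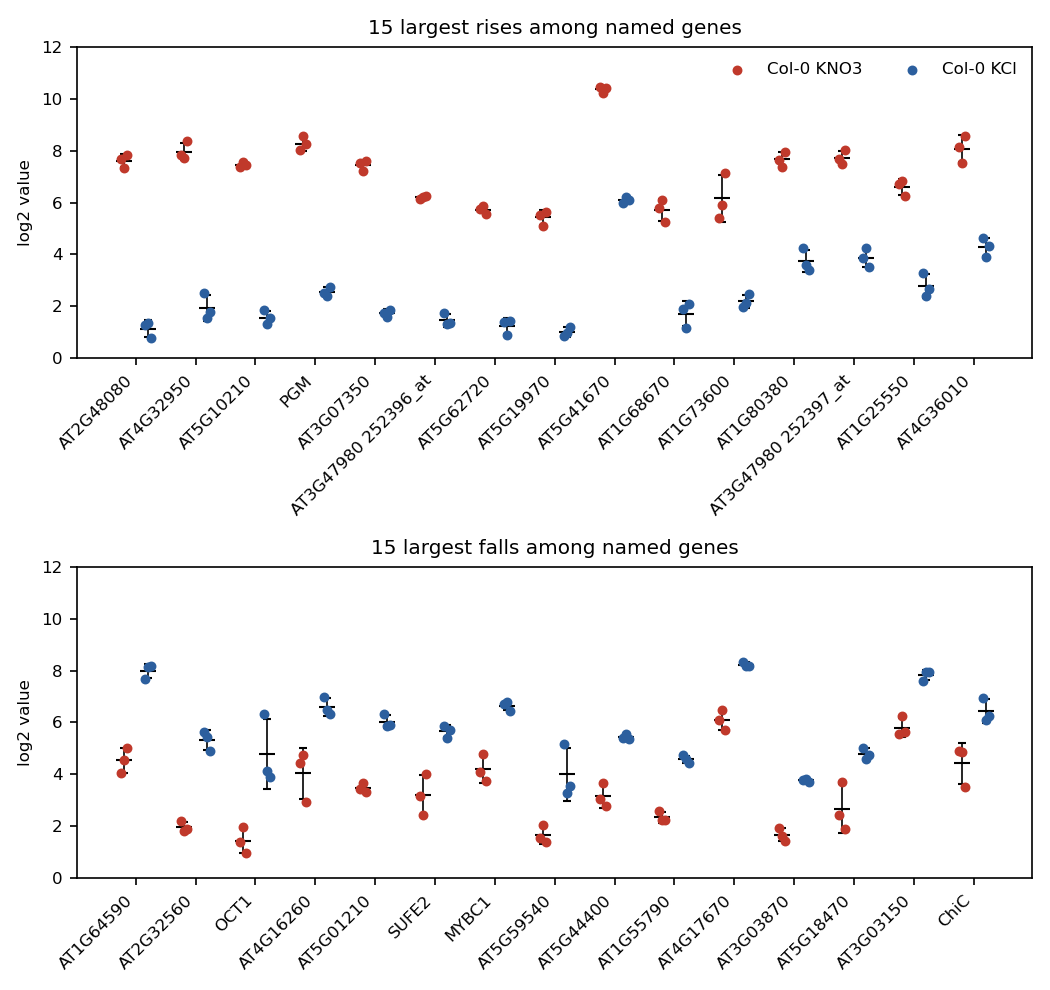
Log2 values of the 6 Col-0 samples for the 15 probe sets with the largest rises (upper panel) and the 15 with the largest falls (lower panel) among called probe sets of 1 gene, KNO3 samples left of KCl samples, with black bars for mean ± SD (n = 3). In the upper panel most genes lie at 1 to 3 with KCl, against 5 to 8 with KNO3, whereas AT5G41670 lies near 6 with KCl and above 10 with KNO3.

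Genes of plastid nitrite handling and 1 gene of molybdenum cofactor synthesis rose, while the few transporters measured by name mostly did not pass. Both genes of the HPP family of membrane proteins, reported to carry nitrite into the chloroplast, rose. This group was compiled after members had been noticed among the changes. AT5G62720 stood at 5.77, 5.86 and 5.57 with KNO3, against 1.38, 0.90 and 1.45 with KCl, a change of 4.49 ± 0.17 (adjusted p = 2.6e-08). AT3G47980 was measured by a pair of probe sets that gave 4.72 ± 0.26 and 3.85 ± 0.25. In the brighter of them it stood at 7.69, 7.49 and 8.02 with KNO3 and 3.88, 4.24 and 3.51 with KCl. AT2G43760 (CNX6), a subunit of molybdopterin synthase and so a step on the way to the cofactor of nitrate reductase, rose by 1.43 ± 0.15, to 7.25 to 7.58 with KNO3 against 5.84 to 6.07 with KCl (adjusted p = 0.000112). It was the only 1 of 23 listed genes of nitrate reduction and ammonium assimilation with a named probe set.

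Of 24 nitrate transport genes, 4 were measured by name, with 0 higher and 1 lower. AT3G21670 (NPF6.4), a close relative of the dual-affinity nitrate transporter, stood at 2.03, 1.07 and 2.65 with KNO3, against 3.66, 4.10 and 3.63 with KCl, and fell by 1.88 (adjusted p = 0.0495). That call ended without any 1 sample except KNO3 replicate 3 (adjusted p from 0.103 to 0.162) and with quantile normalization (0.0632). NRT2.5, a high-affinity transporter of nitrogen-starved roots, had 3.14, 1.69 and 3.76 with KNO3 and 2.58, 4.06 and 3.72 with KCl, so that the groups overlapped (difference -0.59, adjusted p = 0.74). AT1G68570 and AT2G26690, further NPF genes, had differences of 0.64 and -0.81 and did not pass. Among 11 NPF genes taken by name, NRT2.5 left out, 1 rose and 1 fell, against 2.74% and 1.81% of all named genes. The riser, AT1G72125, changed by 1.12 ± 0.23 (adjusted p = 0.0137), a call that ended without KCl replicate 1 or 3 or KNO3 replicate 1 (0.0509, 0.0637 and 0.0568). No listed ammonium transporter was measured by name.

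The pentose phosphate pathway showed opposite changes within 1 enzyme. 6-Phosphogluconate dehydrogenase is the second NADPH-producing step of the pathway. AT5G41670 stood at 10.47, 10.24 and 10.42 with KNO3, against 5.99, 6.22 and 6.09 with KCl, which is 19.4-fold (4.28 ± 0.18, adjusted p = 4.19e-08). AT1G64190 stood at 10.15, 10.08 and 10.25 with KNO3, against 7.50, 7.35 and 7.57 with KCl (2.69 ± 0.11). The third gene of the enzyme, AT3G02360, was bright in both groups, at 8.27, 8.45 and 8.37 with KNO3 and 8.76, 8.76 and 8.88 with KCl, and fell by 0.43 (adjusted p = 0.022). That fall was lost without any 1 sample except KNO3 replicate 2 (adjusted p from 0.0532 to 0.0997), among brighter probe sets only (0.0522) and with the 6 Col-0 samples alone (0.0969). The transaldolase gene AT1G12230, of the same pathway, and the glucose-6-phosphate isomerase gene AT5G42740 had differences of 0.20 and 0.05 and did not pass. Over the 19 listed genes of reductant supply and sugar phosphates, 6 were measured, of which 3 rose and 1 fell, against 2.74% higher and 1.81% lower among all named genes. The remaining riser was PGM, a phosphoglycerate mutase gene. PGM and AT5G42740 are also counted under glycolysis, so the counts of these groups overlap.

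The glycolysis group, compiled after members had been noticed among the changes, had 13 of 47 listed genes measured. Of these 7 were higher (53.8%, against 2.74% of all named genes) and 0 lower. The median change was 0.512, against -0.0101 over all named genes. A pair of genes of the phosphoglycerate mutase family led the group. PGM (AT1G78050) stood at 8.02, 8.55 and 8.25 with KNO3, against 2.53, 2.40 and 2.76 with KCl, a 52.3-fold rise (5.71 ± 0.24). AT1G22170 stood at 5.58, 6.08 and 6.29 with KNO3 and 2.93, 2.90 and 3.41 with KCl (2.90 ± 0.25, adjusted p = 2.37e-05). The pyruvate kinase genes AT5G56350 and AT5G08570, of the last step of glycolysis, rose less, by 0.97 ± 0.11 and 0.86 ± 0.15. Triose phosphate isomerase (TPI), phosphoglycerate kinase (AT1G56190) and GAPC2, a cytosolic glyceraldehyde-3-phosphate dehydrogenase, rose by 0.65, 0.82 and 0.51, and these were the smallest of the 7 rises. The calls of AT1G56190 and GAPC2 ended with the 6 Col-0 samples alone (adjusted p = 0.084 and 0.0868). They also ended without any 1 of KCl 1, KCl 3, KNO3 1 and KNO3 3 for AT1G56190 (0.092 to 0.125), without any 1 sample except KNO3 1 for GAPC2 (0.0529 to 0.089), and without KNO3 1 for TPI (0.0503). Without any 1 sample, 5 to 6 of the 13 rose. The other members, the enolase gene ENOC and further pyruvate kinase genes among them, had differences from -0.0037 to 0.29 and did not pass.

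Some single genes of sugar handling, outside any list, were singled out after their values were seen. The fructokinase gene AT5G51830 stood at 7.89, 7.69 and 7.89 with KNO3, against 5.56, 5.48 and 5.55 with KCl (2.29 ± 0.20), and a second fructokinase gene, AT1G66430, rose by 1.90 ± 0.24. The vacuolar invertase gene AT1G62660, whose product splits sucrose, rose by 1.70 ± 0.21. AT5G18840, of a family of sugar transporters at the vacuole, rose by 2.44 ± 0.35. SWEET16, named by rule, a vacuolar sugar transporter, rose by 1.35 ± 0.21. It was the only call among 17 genes picked by a SWEET-type name (5.88%, against 2.74% of all named genes higher). The lactate dehydrogenase gene AT4G17260, which turns pyruvate into lactate, fell by 0.74 ± 0.13, with 6.67 to 6.92 in KNO3 samples and 7.42 to 7.68 in KCl samples (adjusted p = 0.00626).

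At the entry to the citric acid cycle, 3 of 4 measured genes of the mitochondrial pyruvate dehydrogenase complex rose (75.0%, against 2.74% of all named genes). This group and that of the cycle were compiled after members had been noticed among the changes. MAB1, the E1 beta subunit, stood at 8.51, 8.70 and 8.96 with KNO3, against 7.57, 7.51 and 7.62 with KCl (1.16 ± 0.13, adjusted p = 0.000223). The E2 genes AT3G13930 and AT1G54220 rose by 1.55 ± 0.19 and 1.21 ± 0.20, and a further E2 gene, LTA3, had a difference of 0.32 and did not pass (adjusted p = 0.379). AT5G48970, a mitochondrial carrier of thiamine diphosphate, the cofactor of E1, stood at 5.88, 5.74 and 5.52 with KNO3 and 3.99, 4.39 and 3.71 with KCl (1.68 ± 0.17); it was singled out after its values were seen. In the cycle itself and among malate dehydrogenases, 3 of 15 measured genes rose (20.0%, against 2.74% of all named genes) and 0 fell, with a median of 0.115. These were the plastid malate dehydrogenase gene MDH (1.98 ± 0.15) and the subunits of NAD-dependent isocitrate dehydrogenase IDH-VI (1.70 ± 0.12) and IDH-V (0.65 ± 0.16). IDH-VI stood at 7.16, 6.91 and 7.24 with KNO3 and 5.45, 5.45 and 5.32 with KCl. The call of IDH-V (adjusted p = 0.0344) ended with the 6 Col-0 samples alone (0.0682) and without KCl 2, KCl 3, KNO3 1 or KNO3 2 (0.0783 to 0.137). The succinate dehydrogenase genes, the 2-oxoglutarate dehydrogenase genes and the NADP-dependent isocitrate dehydrogenase gene cICDH, at 9.60 to 9.69 with KNO3 and 9.47 to 9.88 with KCl, did not pass. The 2-oxoglutarate dehydrogenase gene AT5G65750 was near the threshold on the lower side (-0.65, limma adjusted p = 0.0529). The count of falls in the group was 1 with array weights, among brighter probe sets only, with salt and replicate number as a random block, and without KNO3 2.

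**Figure D3:**
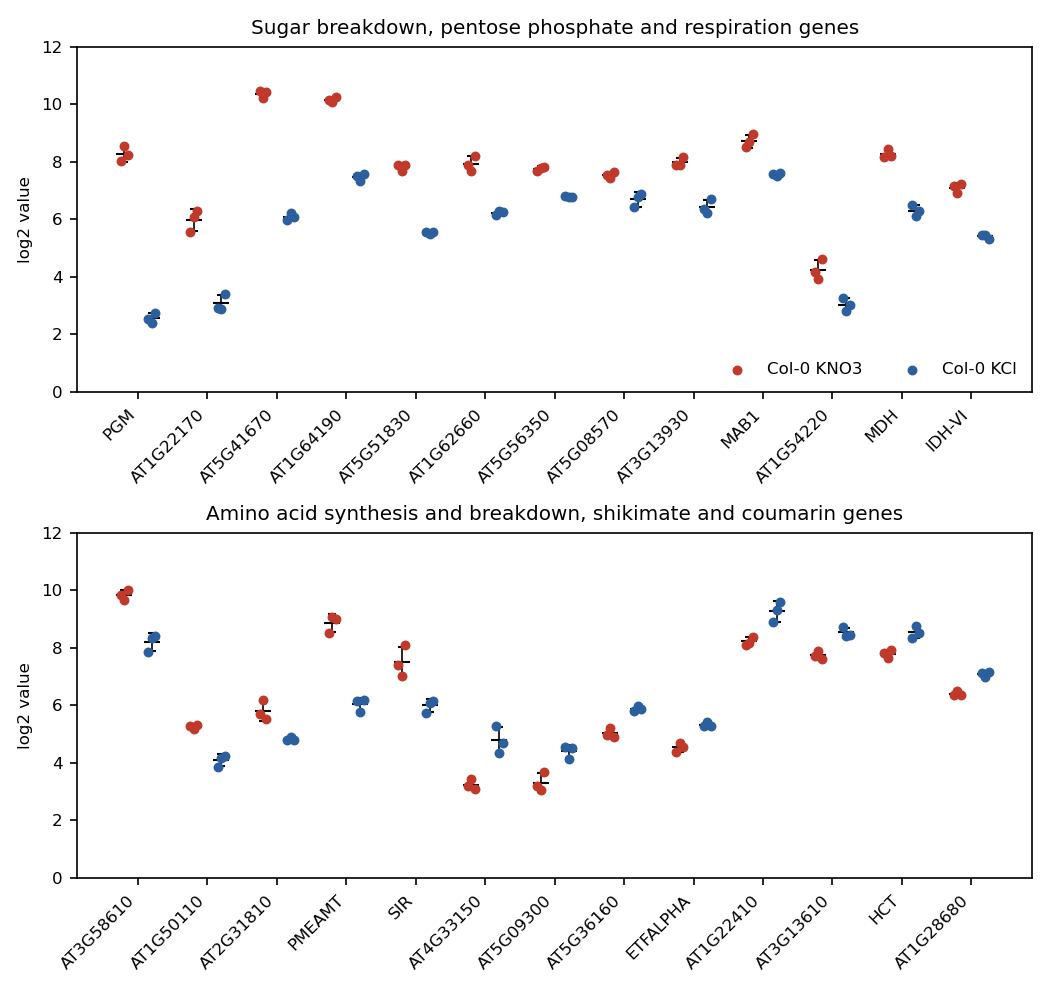
Log2 values of the 6 Col-0 samples for genes of carbon metabolism (upper panel) and of amino acid and shikimate metabolism (lower panel), KNO3 samples left of KCl samples, with black bars for mean ± SD (n = 3). All 13 genes of the upper panel are higher with KNO3. In the lower panel the 5 genes from AT3G58610 to SIR are higher and the 8 genes from AT4G33150 to AT1G28680 lower with KNO3.

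The called genes of branched-chain amino acid synthesis were higher, and those of amino acid breakdown lower. Both groups were compiled after members had been noticed among the changes. In the branched-chain pathway, 3 of 5 measured genes rose (60.0%, against 2.74% of all named genes) and 0 fell, with a median of 0.972. AT3G58610, ketol-acid reductoisomerase, stood at 9.83 ± 0.17 with KNO3 (SD, n = 3), against 8.21 ± 0.31 with KCl, every KNO3 sample above every KCl sample (1.62 ± 0.16, adjusted p = 6.16e-05). AT1G50110, a branched-chain aminotransferase, and AT2G31810, the regulatory subunit of acetolactate synthase, rose by 1.15 ± 0.14 and 0.97 ± 0.20. Of 12 measured breakdown genes 4 fell (33.3%, against 1.81% of all named genes) and 0 rose. The median was -0.534, against -0.0101 over all named genes, and 11 of the 12 differences were below 0. The lysine-degrading enzyme gene AT4G33150 stood at 3.20, 3.43 and 3.09 with KNO3, against 5.29, 4.35 and 4.71 with KCl, and fell by 1.55 on the log2 scale (SE 0.26, adjusted p = 0.00342).

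Further falls in amino acid breakdown were smaller. AT5G36160, a tyrosine aminotransferase, fell by 0.86, AT5G09300, a subunit of branched-chain keto acid dehydrogenase, by 1.08 and ETFALPHA, part of the electron transfer flavoprotein that takes electrons from this breakdown, by 0.79. The other subunit, ETFBETA, and the oxidoreductase ETFQO had differences of -0.76 and -0.60 and did not pass (adjusted p = 0.102 and 0.189). The call of AT5G09300 ended without KCl 1, KCl 3, KNO3 1 or KNO3 2 (adjusted p from 0.0623 to 0.0786), and that of ETFALPHA without any 1 sample except KNO3 2 (0.0791 to 0.141). The count of falls was 2 without KCl 1, KCl 3 or KNO3 1.

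Genes of phosphocholine synthesis and single genes of sulfite reduction and thiol-based redox control rose. The phosphocholine group and the peroxiredoxin and NTRC group were compiled after members had been noticed among the changes. Both measured phosphoethanolamine N-methyltransferase genes, whose products make the head group of phosphatidylcholine, rose. PMEAMT stood at 8.52, 9.08 and 9.01 with KNO3, against 6.16, 5.78 and 6.19 with KCl (2.82 ± 0.19, adjusted p = 2.35e-06). AT1G73600 stood at 5.42, 5.92 and 7.16 with KNO3 and 1.96, 2.13 and 2.47 with KCl (3.98 ± 0.52). SIR, the plastid sulfite reductase, which like nitrite reductase takes electrons from ferredoxin, rose by 1.51 ± 0.30, with 7.42, 7.02 and 8.09 in KNO3 samples and 5.74, 6.09 and 6.16 in KCl samples. Of 4 measured peroxiredoxin and NTRC genes 2 rose. These were the plastid peroxiredoxin gene AT3G52960, at 8.34 to 8.79 with KNO3 and 5.74 to 6.15 with KCl (2.59 ± 0.20), and NTRC, an NADPH-dependent thioredoxin reductase with its own thioredoxin domain (1.28 ± 0.17). AT1G80380, glycerate kinase, which returns carbon to sugar phosphates in photorespiration, rose by 3.94 ± 0.29, although the tissue was root. The aldo-keto reductase gene AT1G59960, singled out after its values were seen, rose by 1.52 ± 0.17.

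Among transcriptional regulators of the nitrate response, 3 of 6 measured genes of 33 listed rose. All 3 belong to the HHO branch of GARP-type factors. AT1G68670 (HHO2) stood at 5.79, 6.09 and 5.26 with KNO3, against 1.88, 1.17 and 2.09 with KCl (4.0 ± 0.26, adjusted p = 1.92e-06). AT1G25550 (HHO3) stood at 6.71, 6.83 and 6.25 with KNO3, against 3.30, 2.40 and 2.66 with KCl (3.81 ± 0.25). AT3G25790 (HHO1) varied widely with KNO3, at 3.50, 2.52 and 5.93, against 0.81, 0.67 and 0.90 with KCl (3.18 ± 0.84, adjusted p = 0.0487). Its call ended without any 1 sample except KNO3 2 (0.0998 to 0.156), with the 6 Col-0 samples alone (0.0582) and with quantile normalization (0.055), while all 3 KNO3 samples lay above all 3 KCl samples. The family members AT4G37180 (HHO5) and AT1G49560 (HHO6), with differences of 0.13 and -0.40, and NRG2 (AT3G60320), with 5.00, 5.17 and 5.62 under KNO3 and 5.24, 5.33 and 5.51 under KCl, did not pass.

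Transcription factors of other families rose and fell. Genes of the AP2/ERF family singled out after their values were seen, AT4G39780, AT5G52020 and AT2G22200, rose by 3.20 ± 0.31, 2.74 ± 0.29 and 1.76 ± 0.17. HYH, a bZIP factor close to the light-signalling factor HY5, stood at 6.84, 6.87 and 6.47 with KNO3 and 4.77, 4.69 and 4.76 with KCl (1.99 ± 0.14, adjusted p = 4.77e-06); it too was singled out afterwards. The factor bHLH34 rose by 1.37 ± 0.24, the only call among 7 bHLH genes. Among falls, MYBC1, a GARP-type factor, stood at 4.07, 4.77 and 3.73 with KNO3, against 6.70, 6.78 and 6.43 with KCl, and fell by 2.45 on the log2 scale (adjusted p = 0.000234). The factor bZIP44 fell by 0.93, 1 of 22 genes picked by a bZIP name, which leaves out HYH (4.55%, against 1.81% of all named genes). HAT2, a homeodomain-leucine zipper factor induced by auxin and singled out after its values were seen, fell by 1.03. WRKY20 and WRKY47 fell by 0.72 and 0.61, 2 of 7 WRKY genes (28.6%, against 1.81% of all named genes). The call of WRKY20 ended without KCl 1, KCl 3, KNO3 1 or KNO3 3 (adjusted p from 0.0693 to 0.0857), and that of WRKY47 without KCl 1 (0.0551) and with an intensity trend (0.0546).

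Protein phosphatases of the 2C family, which remove phosphate from serine and threonine, had 5 rises and 2 falls among 41 measured genes. These were 12.2% and 4.88%, against 2.74% and 1.81% of all named genes, and the median was -0.0371. The group was compiled after members had been noticed among the changes, so these shares only describe it. Beside AT4G32950, AT5G26010 stood at 3.47, 3.86 and 3.80 with KNO3 and 1.64, 1.24 and 0.78 with KCl (2.49 ± 0.25), AT3G16560 rose by 1.99 ± 0.18 and AT5G27930 by 1.28 ± 0.23. AT1G16220 rose by 0.62 and was lost without any 1 sample (adjusted p from 0.0833 to 0.162), with an intensity trend (0.0989) and with salt and replicate number as a random block (0.0537). AT2G20050 and AT3G51370 fell by 0.58 and 0.49. The call of AT2G20050 ended without KCl 1, KCl 3, KNO3 2 or KNO3 3 (0.0549 to 0.0717), with an intensity trend (0.0843) and with quantile normalization (0.0749). That of AT3G51370 ended without KCl 1, KCl 2, KNO3 1 or KNO3 3 (0.059 to 0.0812) and with the 6 Col-0 samples alone (0.0678). AT5G52050 (DTX50), a MATE transporter reported to export abscisic acid from cells and singled out after its values were seen, stood at 5.60, 4.75 and 6.22 with KNO3, against 2.36, 2.04 and 1.90 with KCl (3.43 ± 0.47).

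Receptor kinases of the S-domain type encoded side by side at AT1G61 moved unevenly. All 14 listed genes were measured, with 1 higher and 4 lower (7.14% and 28.6%, against 2.74% and 1.81% of all named genes). The list was compiled after members had been noticed among the changes, so these shares only describe it. AT1G61500 stood at 1.56, 2.11 and 1.63 with KNO3, against 3.19, 3.49 and 3.50 with KCl, and fell by 1.62 (adjusted p = 0.0033). AT1G61360 fell by 1.40, AT1G61550 by 0.88 and AT1G61370 by 0.69, while AT1G61480 rose by 0.84 ± 0.19. These genes are much alike in sequence, so their probe sets may share signal. The call of AT1G61360 ended without KCl 2 (0.0552), that of AT1G61550 without any 1 sample except KCl 2 (0.0632 to 0.153), that of AT1G61370 without any 1 sample except KNO3 3 (0.0581 to 0.146), and that of AT1G61480 without KCl 1, KCl 3, KNO3 1 or KNO3 3 (0.0677 to 0.0879). With the 6 Col-0 samples alone or with quantile normalization, AT1G61550 (0.0712 and 0.0696) and AT1G61370 (0.0868 and 0.0726) were not called, nor was AT1G61370 with an intensity trend (0.0708) or with salt and replicate number as a random block (0.0524). The count of falls was 2 without any 1 of KCl 1, KCl 2, KCl 3, KNO3 1 and KNO3 2. PSY1R, the receptor of a growth-promoting sulfated peptide, rose by 1.24 ± 0.27 and lost its call without KCl 1, KCl 2, KNO3 1 or KNO3 3 (0.0624 to 0.0881). It was singled out after its values were seen.

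Some genes of growing root hairs and of the cell wall rose. EXPA18 and EXPA7, expansins of root hair cells, were 2 of 3 measured root hair genes of 12 listed (66.7%, against 2.74% of all named genes). EXPA18 stood at 5.28, 5.13 and 4.98 with KNO3, against 3.12, 2.83 and 2.74 with KCl (2.23 ± 0.34), and EXPA7 at 4.58, 4.21 and 4.44 with KNO3, against 2.63, 2.76 and 2.77 with KCl (1.69 ± 0.30). Over 19 expansins, 2 rose and 1 fell (10.5% and 5.26%, against 2.74% and 1.81% of all named genes). The faller, EXLB1, stood at 5.17, 4.88 and 5.68 with KNO3 and 7.46, 6.90 and 6.72 with KCl, and fell by 1.78 (adjusted p = 0.00233). Of 10 xyloglucan endotransglucosylase genes, whose products cut and rejoin wall xyloglucan, 3 rose (30.0%, against 2.74% of all named genes). These were XTH20 by 2.37 ± 0.43, XTH32 by 2.04 ± 0.41 and XTH21 by 1.38 ± 0.28. XTH32 was lost without KNO3 1 (0.055), and XTH21 without KCl 1 (0.0515), KNO3 1 (0.0652) or KNO3 3 (0.059), so that the count was 1 without KNO3 1. CSLC04, which makes the xyloglucan backbone, fell by 0.74 and was the only call among 8 cellulose synthase-like genes.

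All 3 genes taken by an extensin or proline-rich name rose, against 2.74% of all named genes. HRGP1 stood at 6.76, 6.66 and 6.73 with KNO3 and 4.99, 5.08 and 5.37 with KCl (1.57 ± 0.20). AT5G01280 and AT3G09000 rose by 0.90 each, and that their products are wall proteins was not shown here. AT3G09000 was lost without any 1 sample except KNO3 2 (adjusted p from 0.0589 to 0.172), with the 6 Col-0 samples alone (0.0558) and with quantile normalization (0.0508). The extensin-like genes AT4G08410 and AT5G06630, singled out after their values were seen, rose by 1.40 ± 0.27 and 0.96 ± 0.23, and AT5G06630 was lost without any 1 sample (0.0601 to 0.116). HRGP1, AT4G08410 and AT5G06630 were read by probe sets of the kind that can bind transcripts of related genes. AT5G04960, of the pectin methylesterase family and also singled out afterwards, rose by 2.30 ± 0.23, to 4.49, 4.35 and 3.94 with KNO3 against 2.08, 2.24 and 1.57 with KCl.

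Class III peroxidases are secreted heme enzymes that stiffen or loosen walls and make reactive oxygen. They had 5 rises and 2 falls among 55 measured genes of 74 listed (9.09% and 3.64%, against 2.74% and 1.81% of all named genes). The median was -0.0669. The group was compiled after members had been noticed among the changes, so these shares only describe it. AT4G26010 stood at 7.04, 6.93 and 7.19 with KNO3, against 5.13, 4.52 and 4.64 with KCl (2.29 ± 0.25, adjusted p = 0.00015). AT3G49960 and AT1G30870 rose by 1.59 ± 0.23 and 1.49 ± 0.27. AT5G17820 rose by 1.07, a call that ended without KCl 2 (0.0612) or KNO3 1 (0.0565), and AT2G35380 by 0.92, which was lost without any 1 sample (0.052 to 0.0839). Opposite to these, AT4G36430 stood at 6.90, 7.68 and 6.19 with KNO3, against 8.63, 8.65 and 8.73 with KCl, and fell by 1.75 (adjusted p = 0.00523), and AT3G21770 fell by 1.30 (adjusted p = 0.00061). Prx37, with 6.27, 7.62 and 5.78 under KNO3 and 8.32, 7.88 and 7.59 under KCl, did not pass (adjusted p = 0.094). The count of rises was 3 without KCl 2 or KNO3 1, and the count of falls was 7 without KNO3 2.

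**Figure D4:**
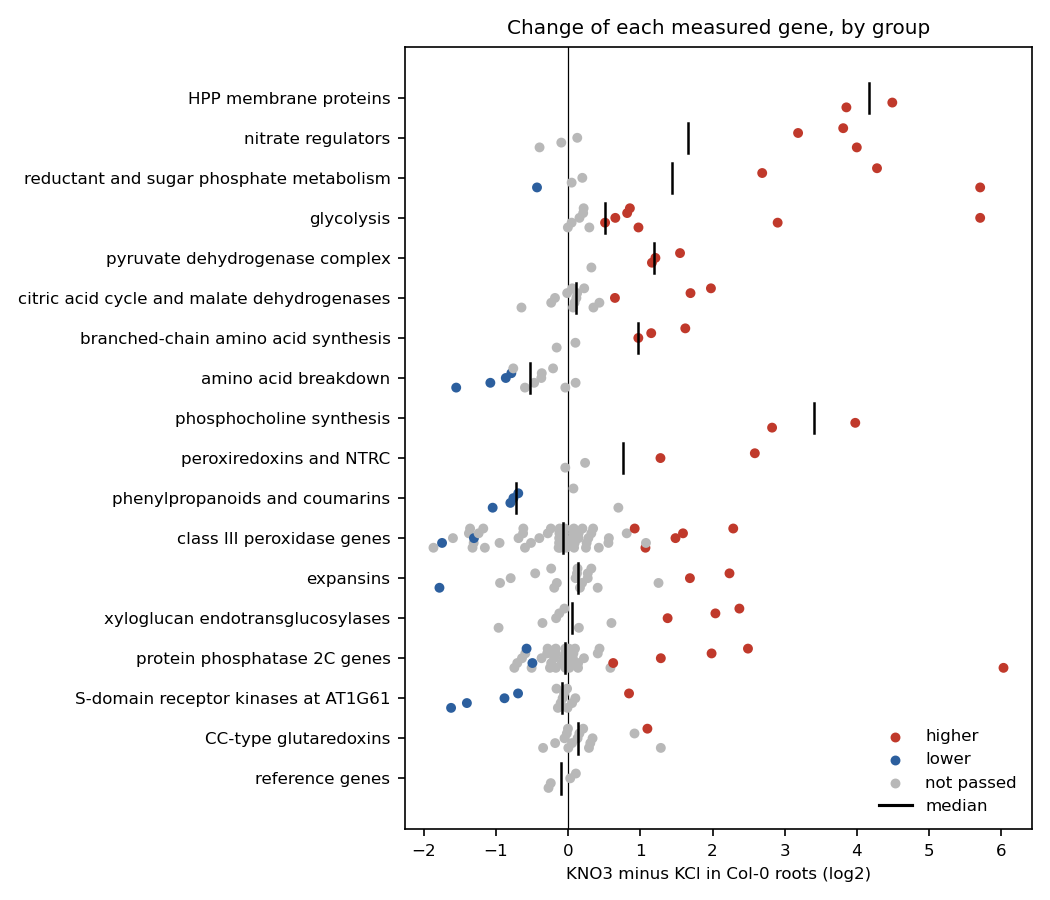
Each point is the KNO3 minus KCl difference (log2) of 1 measured gene in Col-0 roots, red where called higher, blue where called lower and grey where not passed, with the median of each group as a black bar. HPP membrane proteins, phosphocholine synthesis and the pyruvate dehydrogenase complex lie to the right of 0, amino acid breakdown and phenylpropanoids mostly to the left, and peroxidases and 2C phosphatases on both sides.

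Of 6 measured shikimate and phenylpropanoid genes of 23 listed, 4 fell (66.7%, against 1.81% of all named genes) and 0 rose, with a median of -0.724. This group was compiled after members had been noticed among the changes. AT1G22410, of the DAHP synthase family that opens the shikimate pathway, stood at 8.12, 8.18 and 8.39 with KNO3, against 8.89, 9.33 and 9.61 with KCl (fell by 1.04, adjusted p = 0.00784). AT3G13610, the hydroxylase that commits feruloyl-CoA to coumarins such as scopoletin, stood at 7.71, 7.90 and 7.61 with KNO3 and 8.73, 8.43 and 8.46 with KCl (fell by 0.80). AT1G28680, coumarin synthase, fell by 0.69 and HCT, which makes the shikimate esters on the way to lignin, by 0.76. CCR2, a cinnamoyl-CoA reductase, had a difference of 0.70 and did not pass (adjusted p = 0.0923). All 4 falls kept their calls without any 1 sample.

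In enzyme families of specialised metabolism single genes changed. CYP78A9 stood at 5.11, 4.12 and 5.92 with KNO3, against 1.38, 1.5 and 1.21 with KCl (3.69 ± 0.45), and 1 of 24 cytochrome P450 genes rose and 2 fell, against 2.74% and 1.81% of all named genes. The group had been picked by CYP symbols, and 4 cyclophilins caught in this way were left out afterwards. CYP71B23 and CYP71B28 fell by 1.09 and 0.89, the first lost without KCl 1, KCl 3, KNO3 1 or KNO3 2 (0.068 to 0.124) and the second with the 6 Col-0 samples alone (0.0864) and without KCl 1, KNO3 1, KNO3 2 or KNO3 3 (0.0583 to 0.099). Of 52 glycosyltransferase genes 2 rose (3.85%) and 1 fell (1.92%), shares near those of all named genes. UGT84A4 rose by 1.26 ± 0.25 and UGT71C2 by 0.63, a call that ended without any 1 sample except KNO3 2 (0.0706 to 0.146) and with an intensity trend (0.0919), and UGT71C3 fell by 1.35. GSTU21 rose by 1.48 ± 0.16, the only call among 13 glutathione transferase genes. The BAHD acyltransferase genes AT5G47980 and AT5G47950, singled out after their values were seen, rose by 2.44 ± 0.46 and 2.03 ± 0.28. The thaumatin-like gene AT4G36010 rose by 3.79 ± 0.38, to 8.13, 7.53 and 8.56 with KNO3 against 4.63, 3.92 and 4.31 with KCl.

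The largest fall among named genes was that of AT1G64590, a short-chain dehydrogenase. It stood at 4.05, 4.56 and 5.01 with KNO3, against 7.67, 8.13 and 8.16 with KCl, and fell by 3.45 on the log2 scale, or 10.9-fold (adjusted p = 0.000339). The F-box gene AT2G32560 stood at 2.18, 1.80 and 1.90 with KNO3, against 5.64, 5.43 and 4.88 with KCl (fell by 3.35, adjusted p = 8.15e-07). OCT1, an organic cation and carnitine transporter, stood at 1.39, 1.95 and 0.98 with KNO3 and 6.34, 4.11 and 3.89 with KCl, the KCl samples being spread over more than 2 log2 units. It fell by 3.34 (adjusted p = 0.0133), a call lost without KNO3 1 (0.0512) or KNO3 3 (0.0588). The 2-oxoglutarate-dependent oxygenase gene AT5G59540 was also spread with KCl, with 1.55, 2.05 and 1.37 under KNO3 and 5.17, 3.29 and 3.53 under KCl (fell by 2.34, adjusted p = 0.00392). In both, KCl replicate 1 was the highest sample.

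Of the 15 largest falls, 3 more lost their calls without single samples. AT4G16260, a beta-1,3-glucanase, stood at 4.44, 4.74 and 2.92 with KNO3, against 6.97, 6.48 and 6.32 with KCl (fell by 2.56, adjusted p = 0.0206). ChiC, a class V chitinase, stood at 4.91, 4.85 and 3.49 with KNO3 and 6.94, 6.10 and 6.26 with KCl (fell by 2.02, adjusted p = 0.0162). AT5G18470, a lectin of the curculin type, stood at 2.44, 3.71 and 1.89 with KNO3, against 5.03, 4.59 and 4.73 with KCl (fell by 2.10, adjusted p = 0.0288). In all 3 genes KNO3 replicate 3 was the lowest sample. The call of AT4G16260 ended without any 1 of KCl 1, KCl 2, KCl 3 and KNO3 3 (0.0526 to 0.0797), that of ChiC without KCl 1 (0.0671) or KNO3 3 (0.0543) and that of AT5G18470 without any 1 sample except KNO3 2 (0.0711 to 0.119). The berberine bridge enzyme-like gene AT5G44400 fell by 2.28 (adjusted p = 0.000602).

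The remaining large falls kept their calls without any 1 sample. AT5G01210, of the BAHD acyltransferase family, fell by 2.55, SUFE2, of a family that supplies sulfur for iron-sulfur clusters, by 2.47, and AT4G17670, of the FLZ zinc finger family linked to the energy-sensing SnRK1 kinase, by 2.13. AT4G17670 was bright, at 6.10, 6.48 and 5.70 with KNO3 and 8.34, 8.19 and 8.16 with KCl. AT1G55790, AT3G03870 and AT3G03150 fell by 2.24, 2.12 and 2.02. ATG8F, which coats forming autophagosomes, fell by 0.80 and was the only call among 11 autophagy genes (adjusted p = 0.0444). That call ended without any 1 sample except KCl 3 (0.0615 to 0.171) and with the 6 Col-0 samples alone (0.117).

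Protein turnover and small redox families had few calls. The ubiquitin-conjugating enzyme gene UBC18, singled out after its values were seen, rose by 1.49 ± 0.16, to 7.18, 7.72 and 7.24 with KNO3 against 6.02, 5.86 and 5.80 with KCl. PUB25, a U-box ubiquitin ligase, rose by 0.97 ± 0.22, 1 of 9 family members, and its call ended without KCl 1, KCl 2, KNO3 1 or KNO3 3 (0.0748 to 0.114) and with the 6 Col-0 samples alone (0.0555). AT3G62930, of the CC-type glutaredoxins, small plant redox proteins some of which respond to nitrate and cytokinin, stood at 1.66, 1.67 and 1.38 with KNO3 and 0.26, 0.67 and 0.48 with KCl (1.10 ± 0.21), all below the array medians, and was 1 of 16 measured. The called probe set with the highest adjusted p, of AT1G48960 (0.05 as rounded), rose by 0.41. It was lost without any 1 sample (0.0706 to 0.192), with an intensity trend (0.207) and with the 6 Col-0 samples alone (0.153). It was also lost among brighter probe sets only (0.0834) and with salt and replicate number as a random block (0.055).

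Several groups had 0 calls among their few members measured by name (limma). Low oxygen, with 2 genes, cytokinin, with 2, auxin and lateral roots, with 4, and iron, with 2, had 0, 1, 0 and 0 members at an unadjusted p under 0.05. Their members with the largest differences were PDC2 at -0.17, ARR15 at 0.40, GH3.3 at -0.53 and BHLH101 at 0.23. The clock gene GI stood at 6.20, 5.91 and 6.68 with KNO3 and 6.32, 6.05 and 6.54 with KCl. Also without a call were 5 histone genes (0 at an unadjusted p under 0.05), 7 auxin response genes (1), 6 two-component response genes (1), 9 calcium sensor genes (2) and 8 nuclear photosynthesis genes (1). Among 4 jacalin lectin genes 0 passed and 3 had an unadjusted p under 0.05, with JAL34 at -0.60 (adjusted p = 0.075).

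Probe sets without a gene name made up 379 of the 755 rises and 249 of the 498 falls, or 50.1% of all calls, against 38.4% of all probe sets. Among the 50 largest rises 26 had no name, and among the 50 largest falls 24. Many genes long known to respond to nitrate, the nitrate and nitrite reductases and the main NRT2 transporters included, are not analysed here by name, and which genes the unnamed probe sets read was not analysed here.

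Probe sets without a name held the 2 largest rises. Probe set 260623_at stood at 9.98, 9.80 and 10.38 with KNO3, against 2.10, 3.36 and 2.87 with KCl, a change of 7.28 ± 0.27, or 155-fold (adjusted p = 1.72e-08). 264859_at followed with 9.37, 9.44 and 9.58 with KNO3 and 2.62, 2.80 and 3.40 with KCl (6.52 ± 0.20). 265475_at, with 10.73, 10.67 and 10.90 under KNO3 against 4.77, 4.46 and 4.73 under KCl (6.11 ± 0.16), and 249325_at, with 9.97, 9.81 and 9.84 against 4.59, 4.54 and 4.68 (5.27 ± 0.14), were bright with KNO3 and above the array medians with KCl. 246996_at, 259365_at, 255669_at and 260624_at rose by 5.95, 5.03, 4.76 and 4.75, and the last 2 stood at 0.27 to 0.84 with KCl.

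The unnamed falls were smaller and less even. 264204_at stood at 2.93, 3.51 and 3.21 with KNO3 and 5.41, 5.77 and 5.90 with KCl (fell by 2.48, adjusted p = 0.000972), and 254215_at and 246000_at fell by 2.64 and 2.37. In 247717_at, 250646_at, 262325_at and 257540_at, which fell by 3.05, 2.94, 2.92 and 2.89, KCl replicate 1 was the highest sample, at 5.59 to 6.79, with the other KCl samples at 3.57 to 5.09. 254767_s_at was spread most with KNO3, at 5.29, 6.82 and 3.28, against 8.06, 7.96 and 7.81 with KCl (fell by 2.81, adjusted p = 0.0459). Those 5 calls depended on single samples. Without KNO3 1 the adjusted p was 0.0567, 0.084, 0.146, 0.0517 and 0.118 in this order, and without KCl 1 it was 0.0797, 0.0982, 0.14 and 0.121 for all but 257540_at. Without KNO3 3 it was 0.0851, 0.109, 0.156 and 0.123 for the same 4. Without KCl 2 it was 0.051, 0.0785 and 0.125 for 247717_at, 262325_at and 254767_s_at, and without KCl 3 it was 0.0542 and 0.114 for the last 2. With the 6 Col-0 samples alone, 262325_at (0.0576) and 254767_s_at (0.092) also lost their calls.

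**Figure D5:**
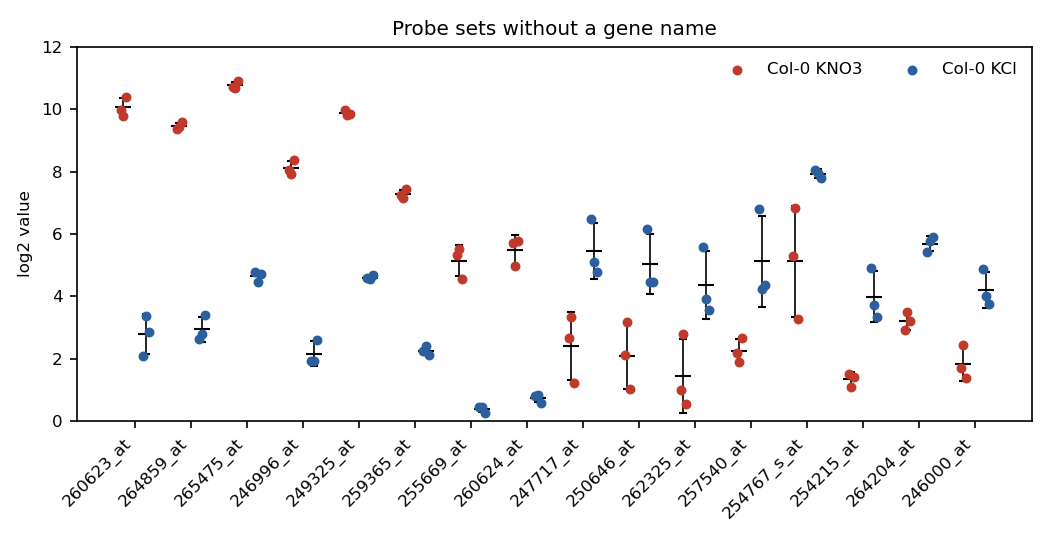
Log2 values of the 6 Col-0 samples for the 8 largest rises and the 8 largest falls among called probe sets without a gene name, KNO3 samples left of KCl samples, with black bars for mean ± SD (n = 3). The rises separate the groups by 4.75 or more, and in several falls KCl replicate 1 stands above the other KCl samples.

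The response of Col-0 was set against that of tga1/tga4 roots by the interaction, the response of the mutant minus that of Col-0. It was called for 1 of 22746 probe sets (0.0044%), with 683 at an unadjusted p under 0.05. Those 683 are a smaller share of the probe sets than the 0.05 expected if no response differed. Samples of the same salt and number deviated together across genotypes, and with salt and number as a random block the interaction was called for 2. The second, 247199_at, without a gene name, had a difference of -2.46 (adjusted p = 0.145 without and 0.0104 with the block), with 1.40 ± 0.26 under KNO3 and 1.10 ± 0.35 under KCl in the mutant and 7.38 ± 0.20 and 4.62 ± 0.46 in Col-0 (SD, n = 3 each). Of the 1253 Col-0 calls, 1230 had the same sign in the mutant and 23 the opposite. For AT2G48080 the difference of responses was -0.01 (95% interval -0.62 to 0.60), for PGM -0.12 (-0.86 to 0.62) and for AT5G41670 0.02 (-0.53 to 0.57), so a difference of more than 1 log2 unit lay outside these intervals. The probe set called in both fits, 250463_at, has no gene name either. It stood at 0.87 ± 0.16 with KNO3 and 0.62 ± 0.21 with KCl in the mutant, and at 5.30 ± 0.20 with KNO3 and 2.67 ± 0.24 with KCl in Col-0 (SD, n = 3 each). The difference of responses was -2.38 (-2.88 to -1.88, adjusted p = 0.00731, and 0.00165 with the block). Both probe sets lay below the array medians in the mutant under either salt and were lower there than in Col-0. They were not shown to exceed background in the mutant, so the sizes of these differences are uncertain. A smaller nitrate response and a signal too low to show one cannot be told apart.

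For some root hair and wall genes the measured response was smaller in the mutant, without passing the test. The difference of responses was -1.5 (95% interval -2.56 to -0.45) for EXPA18, -1.15 (-2.08 to -0.22) for EXPA7, -1.58 (-2.36 to -0.81) for the peroxidase gene AT4G26010 and -1.49 (-2.10 to -0.88) for HRGP1. These intervals are not corrected for the number of probe sets, and the adjusted p was 0.957 for HRGP1 and 0.999 for the others. With the random block it was 0.182 for HRGP1 and 0.761 to 0.818 for the others. In all 4 genes the KCl samples were higher and more spread in the mutant than in Col-0. EXPA18, for example, stood at 4.85 ± 0.30 with KNO3 and 4.12 ± 0.90 with KCl in the mutant, and at 5.13 ± 0.15 with KNO3 and 2.90 ± 0.20 with KCl in Col-0 (SD, n = 3 each). Other wall genes had differences nearer 0, with -0.13 (-1.45 to 1.2) for XTH20, -0.28 (-1.54 to 0.98) for XTH32 and -0.12 (-0.99 to 0.74) for EXLB1. The unnamed 260624_at had -1.27 (-1.86 to -0.69, adjusted p = 0.999).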

How the data were processed

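RNA of whole roots was hybridised to Affymetrix arrays of 1 channel, 3 per group. The table deposited by the authors holds a log2 value for each probe set and sample. How they corrected background, normalized and summarised probes is not given in the sources used here. Hybridisation controls were used to check the scale. In Col-0 samples cre minus bioB was 5.67. The nominal concentrations, 100 and 1.5 pM, give 6.06 on a log2 and 4.2 on a natural log scale. Array processing can compress changes of dim probe sets, and the number of arrays limits the precision, with a median SE of 0.164.

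The table holds 22810 probe sets; 64 controls were left out. Gene names came from a platform annotation supplied with the data, and 13436 of the 13513 single-gene probe sets matched a TAIR10.1 entry. limma 3.58.1 (R 4.3.3) fitted group means over the 12 arrays, without an intensity trend, and two-sided moderated tests were made of the Col-0 contrast and the interaction. The model was tested on simulated data with independent noise in every array. Those data lacked the deviations shared across genotypes, so that test cannot show how the calls hold under them. Tables and figures were made with Python 3.11.15, pandas 2.3.3 and matplotlib 3.10.9.

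The comparison, gene lists and families were chosen with earlier results of these data known. By rule, the text names the 15 largest rises and 15 largest falls among called probe sets of 1 gene, 8 and 8 without a name, all measured nitrate transport, reduction, reductant and regulator genes, and up to 3 called members per direction, or the member with the largest change, of other groups. It also names the called probe sets with the smallest and the largest adjusted p. Groups for glycolysis, pyruvate dehydrogenase, the citric acid cycle, amino acid synthesis and breakdown, phosphocholine, HPP proteins, phenylpropanoids, peroxiredoxins, peroxidases, 2C phosphatases and S-domain kinases were compiled as whole families after members had been noticed among the changes, so their counts are descriptions. A further 34 genes and probe sets were singled out after their values were seen. Beyond those marked in the text, and 250463_at with its called interaction, they are additional members of these groups. No list was tested, and no promoter sequence was analysed here. Samples of the same salt and replicate number deviated together across genotypes (correlations from 0.276 to 0.726 over probe sets), which the random block takes into account. Alternatives were the 6 Col-0 samples alone, an intensity trend, quantile normalization, brighter probe sets only, array weights, replicate blocks, each Col-0 sample left out, and the mean of a gene's probe sets.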

Additional observations from a re-analysis of the deposited data

Results flagged for a closer look

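The interaction of genotype and nitrate was called for 250463_at, a probe set without a gene name. The response of tga1/tga4 minus that of Col-0 was -2.38 on the log2 scale (95% interval -2.88 to -1.88, limma adjusted p = 0.00731). In the mutant it stood at 0.87 ± 0.16 with KNO3 and 0.62 ± 0.21 with KCl (SD, n = 3 each), below the array medians. Whether these levels stand above background was not shown, which leaves the size of the difference uncertain. The probe set was lower in the mutant than in Col-0 under either salt, so a smaller response and a signal too low to show one cannot be told apart. In Col-0 it rose by 2.63 ± 0.16, with 5.11, 5.29 and 5.50 under KNO3 and 2.93, 2.45 and 2.63 under KCl.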

How the results depend on the processing

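The count of 1253 calls lay between 1065 (the 6 Col-0 samples alone) and 1657 (array weights) over the alternatives that kept all Col-0 samples. Leaving out 1 Col-0 sample gave 815 to 1246 calls, 537 to 720 rises, 265 to 526 falls and 608 to 811 changes of at least 2-fold, with the fewest calls without KNO3 replicate 1. Falls numbered 310, 315 and 284 without KCl replicates 1, 2 and 3, and 265 and 275 without KNO3 replicates 1 and 3. Of the main calls, 790 were called without KNO3 replicate 1 and 1237 with array weights. Same-numbered Col-0 KNO3 and KCl samples were not shown to pair, with correlations of their deviations of -0.01305, -0.13562 and 0.22545. With the replicate number within genotype as a block 1134 probe sets were called, 697 higher and 437 lower. This block ended 15 named calls, among them AT3G21670 (0.106), AT3G02360 (0.0807), TPI (0.0537), AT1G56190 (0.0926) and GAPC2 (0.0548), and left 4 rises in glycolysis. Of the named calls, 0 were lost only in settings other than leaving out a sample. With salt and number as a random block, 1315 were called, 3 named calls ended and the interaction was called for 2 probe sets in place of 1. Of 144 called genes and probe sets named by rule or singled out, 103 kept their call under every alternative and 41 lost it under at least 1, and 0 changed direction. Of 1232 counts over gene groups, 124 moved by over 1.5 times. With the mean of a gene's probe sets, the nitrate transport group had 0 falls. The planned search of promoters was not run. Dim probe sets are a further limit, since their levels were not shown to exceed background.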
